A study of Mus musculus with 2 samples.

Results

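The perineuronal net and hyaluronan matrix was followed here through 10 genes: the lecticans Acan, Bcan, Ncan and Vcan, the link proteins Hapln1, Hapln2 and Hapln4, the tenascins Tnr and Tnc, and the hyaluronan synthase Has2. Their probes were chosen by name, as every non-control probe that the array annotation assigns to one of these symbols, which gave 14 of the 55681 probes and 10 of the 22146 gene symbols on the array. The TTX culture was ICR mouse hippocampal cells kept for 2 days in tetrodotoxin, which blocks voltage-gated sodium channels and so stops action potentials, and the control culture was the same kind of cells without it. Both were prepared at embryonic day 16.5 and harvested at 12 days in vitro. Both grew in medium with 5.5% serum and received 5 µM Ara-C, added at day 2 against dividing glia. The labels give the TTX dose in different ways, with 2 mM as source name and 2 µM where the design is described, a conflict the files do not settle. Each culture gave 1 single-colour Agilent array, so no difference has a replicate check and no test between conditions was possible. Having 1 array a condition is what limits precision here.

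Perineuronal nets are lattices of extracellular matrix around the cell body and proximal dendrites of certain neurons, in the hippocampus above all around parvalbumin interneurons. Their backbone is hyaluronan, a sugar polymer spun out by hyaluronan synthases at the cell membrane. Lecticans, which are chondroitin sulfate proteoglycans, hold on to hyaluronan by one end, link proteins clamp that contact, and tenascin-R ties the other ends of the lecticans together. Nets form late in development and are known to depend on neuronal activity.

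In the TTX culture 1 of these genes stood clearly apart: the signal of Hapln1, a link protein needed for compact nets, was 3.97-fold lower than in the control culture. The proteoglycans that it clamps did not show a difference of that size. Acan and the 5′ probe of Vcan were slightly lower, Ncan and Tnr close to level, and Bcan higher at 1 of its 2 probes. Of the 10 genes, 7 were well above background on both arrays, 1 of them was at least 2-fold lower in TTX, and none was at least 2-fold higher. Among all 14016 genes measured on both arrays 3.40% were at least 2-fold lower in TTX and 2.09% at least 2-fold higher, so a count of 1 in 7 says little about the family as a whole. The median log2 difference over the 7 genes was 0.05, against 0.01 over all measured genes, and 5 of the 7 lay within 1.5-fold, as did 83.7% of all measured genes.

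The probes that carry these readings are 60-base oligonucleotides with 1 spot each, and the last 30 bases of 6 of them are given below, 5′ to 3′. They are shown because the Hapln1 value rests on 1 probe, and because Bcan and Vcan were each read at separate places along the gene. Capitals mark AATAAA, the hexamer of polyadenylation signals, which lies in 3 of the 14 member probes, including that of Has2, and in 10.1% of all probes on the array. Positions follow the mm9 build that the files name and cover only the bases shown; no exon or UTR annotation of that build was used here.
Hapln1 (chr13:89751126-89751155, plus strand): ttgctagcaatgctttgaatgaataccaac
Bcan 3′ probe, transcript variant 1 (chr3:87791457-87791486, minus strand): aaccaggtggaAATAAAgttgtctgaaccc
Bcan 5′ probe, transcript variant 2 (chr3:87796466-87796495, minus strand): tgactgtttcatggaaaacaaaccttggaa
Ncan (chr8:72618955-72618984, minus strand): agacctcAATAAAtctcctgcctcagattc
Vcan 3′ probe (chr13:89795080-89795109, minus strand): atcactgtgttgacttactagggctttttt
Vcan 5′ probe (chr13:89851810-89851839, minus strand): atagcagatttgatgcctactgctttaaac

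Of the link proteins, Hapln1 is also known as cartilage link protein, and its loss in mice leaves nets attenuated. Its normalised signal was 716 in the TTX culture, against 2842 in the control culture, a log2 difference of -1.99 with a Feature Extraction error of 0.20. This error is the one the scanner software assigns to a spot, carried over to the difference; it covers the spot and not the culture. In bulk RNA such as this, fewer cells of a type and less RNA per cell cannot be told apart. The gap was there in the unprocessed image too. The mean brightness of the spot was 745 over a local background of 59 on the TTX array, and 2857 over 57 on the control array, from 42 and 45 pixels. Of the 14016 measured genes 93 had a lower difference, or 0.664%. In probes printed 10 times on each array and of similar brightness (log2 signals of 10 to 12), the difference at single spots had a pooled SD of 0.07 (66 probes), far less than the gap of Hapln1.

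The position of that spot on the array was also read, since all of the Hapln1 value comes from it. It lay in row 73 of 384. The 24 measured spots within 3 rows and 3 columns of it had a median difference of -0.08, from -1.96 to 0.90, and the 48 rows around it a median of 0.01. The 5′ probe of Vcan, also in row 73, was at -0.22. Whether a second probe of Hapln1 would give the same value cannot be known, as the array holds 1.

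Hapln4, a link protein of the adult brain that is known from inhibitory synapses and nets, was close to level. Its signal was 1334 in TTX and 1206 in control, a log2 difference of 0.15 that is smaller than its Feature Extraction error of 0.20. Hapln2, the link protein of the nodes of Ranvier on myelinated axons, was not well above background on either array, with signals of 3.77 in TTX and 3.68 in control. The lowest signals that counted as well above background were 19.7 on the TTX array and 15.98 on the control array. Hapln3, the remaining link protein, which is no member, had signals of 168 in TTX and 186 in control (-0.15). So of 4 link proteins 3 were measured, and Hapln1 alone differed by more than the Feature Extraction error of its spots. The difference of Hapln4 did exceed the pooled SD of 0.07 from repeated probes of its brightness, which also leaves out the culture.

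**Figure D1:**
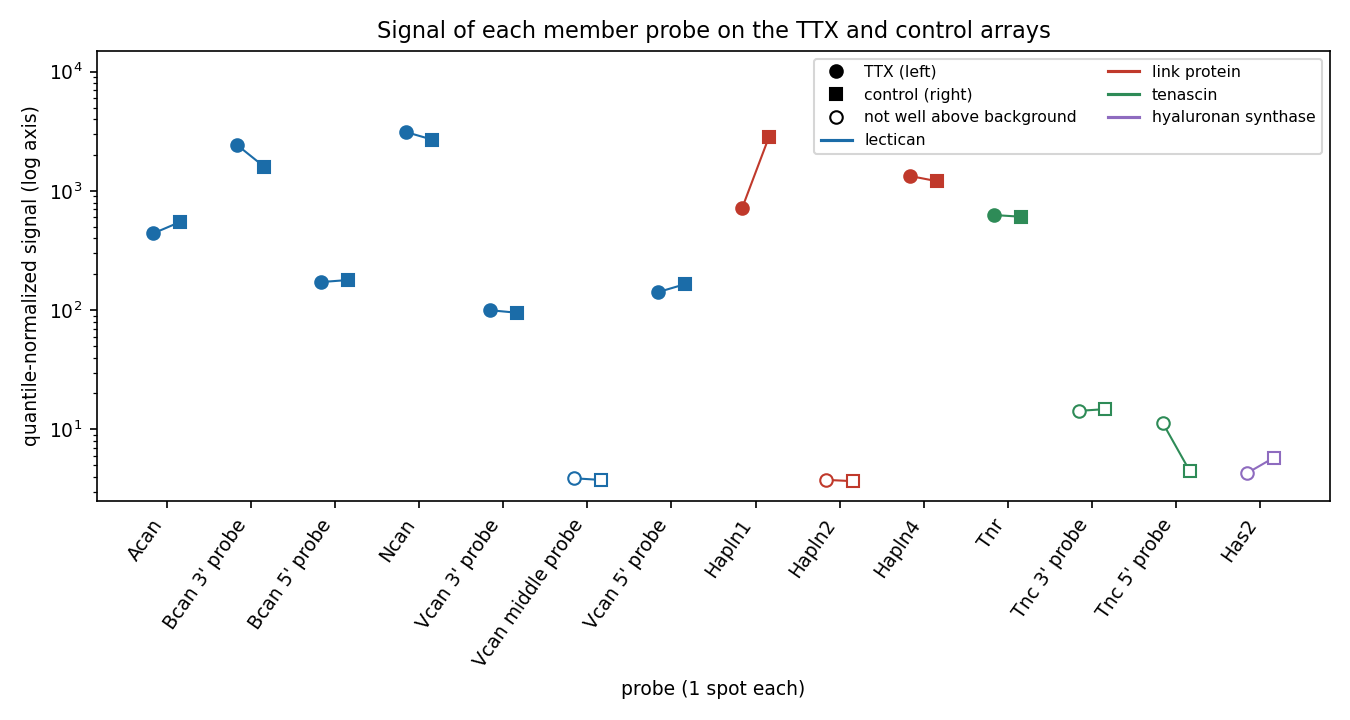
Normalised signal on a log axis of each of the 14 member probes, 1 spot per array, with the TTX array as circles on the left and the control array as squares on the right. Open symbols mark the 5 probes that were not well above background; Hapln1 has the only steep line among filled symbols, with 716 in TTX and 2842 in control, and heights of different probes are not comparable.

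Among the lecticans, Acan encodes aggrecan, the large proteoglycan on whose presence nets depend and the usual marker of mature ones. Its signal was 441 in TTX and 550 in control (log2 difference -0.32, error 0.20; probe at chr7:86259741-86259801). The difference is larger than the error of its spots but well within the range of measured genes, of which 19.1% were lower. Ncan, neurocan, a lectican of the juvenile brain, had signals of 3128 in TTX and 2690 in control. Its difference of 0.22 was about the size of its error, and it shrank to 0.03 when the arrays were scaled on the spike-in controls.

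Bcan encodes brevican, the most common lectican of the adult brain, made by glia and by neurons, as a secreted protein and as a shorter form anchored in the membrane. Its 2 probes, 4949 bases apart, did not give 1 value. The 3′ probe, annotated to transcript variant 1, read 2421 in TTX and 1595 in control (0.60, error 0.20). The 5′ probe, annotated to variant 2, read 172 in TTX and 179 in control (-0.06, error 0.21). The probes thus differed by 0.66 in their log2 differences, with an error of 0.29 for that gap. Among the 4124 genes with more than 1 measured probe the median gap was 0.20 and the 95th percentile 0.85, so a gap of this size is not rare on these arrays. With 1 array per group it cannot be told whether the transcript forms changed differently.

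Vcan, versican, is a lectican with several splice forms that is widespread in young tissue. Its 3′ probe, annotated to 4 RefSeq transcripts, read 99.997 in TTX and 95.192 in control (0.07). The 5′ probe, also annotated to 4, read 142 in TTX and 165 in control (-0.22). Both values were close to or within their errors of 0.22 and 0.21, and the gap between them, 0.29, was within its error of 0.30. A middle probe (chr13:89850072-89850131), annotated to a single transcript form, variant 5, was not well above background, with signals of 3.89 in TTX and 3.77 in control.

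**Figure D2:**
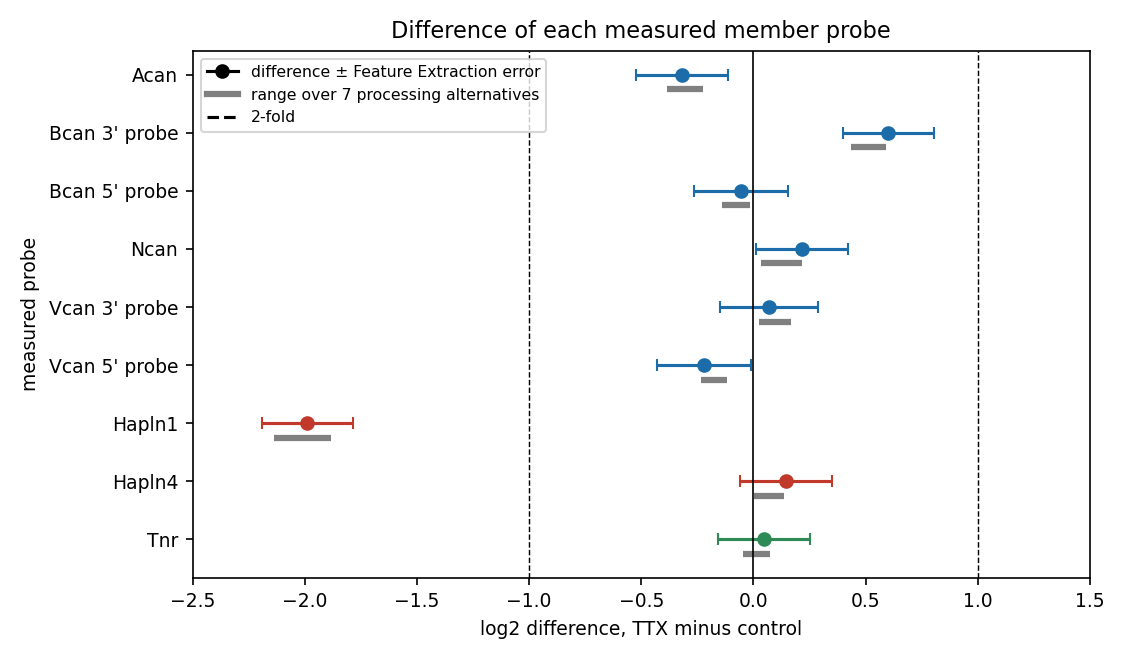
Log2 difference, TTX minus control, of the 9 measured member probes (x axis), with bars for the Feature Extraction error of the spots and grey bars for the range over 7 processing alternatives; colours give the role as in the plot of signals. Hapln1 at -1.99 is the only probe past the dashed 2-fold lines, and the other 8 lie between -0.32 and 0.60.

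Tenascin-R, encoded by Tnr, joins lecticans to each other and is made by oligodendrocytes and some neurons. Tnr was level, with 628 in TTX and 608 in control (0.05, error 0.20; chr1:161854449-161854508), and its sign turned with 1 of the 7 processing alternatives, to -0.05 with spike-in scaling. Tnc, tenascin-C, which belongs to embryonic and injured tissue and to astrocytes, was below the level called well above background at both probes. Its 3′ probe read 14.3 in TTX and 14.8 in control. Its 5′ probe, whose 60 bases span 764 bases of the genome and so cross an intron, read 11.3 in TTX and 4.50 in control, and no difference is given for values this low. Has2, the main hyaluronan synthase of embryonic tissue, was not well above background either, with 4.28 in TTX and 5.79 in control. The 3 genes without a measured probe were therefore Hapln2, Tnc and Has2. This says that their signals were too low to compare, not that the transcripts were missing.

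A feature that the naming of the members did not use is where the genes lie. In the RefSeq gene table each link protein gene is the direct neighbour of a lectican gene, with 0 protein-coding genes between them: Hapln1 beside Vcan on chromosome 13, Hapln2 beside Bcan on 3, Hapln3 beside Acan on 7, and Hapln4 beside Ncan on 8. The neighbours did not share the difference of Hapln1. Vcan, next to it, was at -0.22 at its brighter probe, where Hapln1 was at -1.99. Hapln4 and Ncan were at 0.15 and 0.22. Hapln3 and Acan were at -0.15 and -0.32. In the pair of Hapln2 and Bcan only Bcan was measured.

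**Figure D3:**
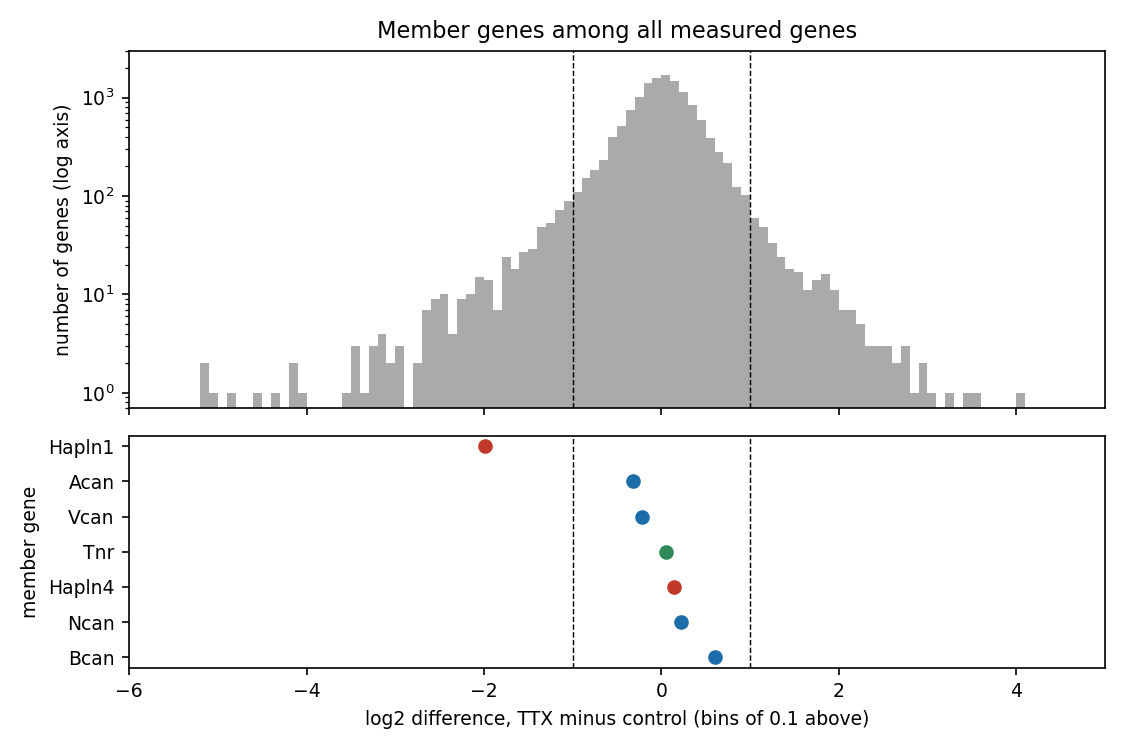
Upper panel: number of genes (log axis) by log2 difference, TTX minus control, for all 14016 measured genes. Lower panel: the 7 measured member genes at their brightest probe, of which 6 lie in the bulk between -0.32 and 0.60 and Hapln1 lies at -1.99, where 0.664% of genes were lower.

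The genes around the members were read in 5 lists, written with earlier results of these data known. Over the lists together 81 of 101 genes were measured, 8 were at least 2-fold lower in TTX and 2 at least 2-fold higher, beside the 3.40% and 2.09% over all measured genes. With normexp background correction the counts were 4 lower and 1 higher. The median difference was -0.09, or 0.01 with 75th percentile scaling. Of the 8 lower genes 3 were aggrecanases and 3 came from the list of net receptors and bound factors, Egfr among them. Of the rest, 1 takes part in breaking hyaluronan down and 1 sulfates chondroitin.

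In the list of hyaluronan synthesis, turnover and receptors, 13 of 22 genes were measured, with a median of 0.06. Cemip, a hyaluronan-binding protein needed to break the polymer down, was the only one of the 13 at least 2-fold lower, with signals of 42.3 in TTX and 90.6 in control (-1.10). That value stayed past 2-fold under 2 of 5 alternatives and was -0.46 with normexp background correction. Uap1, which makes the N-acetylglucosamine donor for hyaluronan, was just short of 2-fold, with 1888 in TTX and 3744 in control (-0.99), and was past it under 4 of 5 alternatives. Ugdh, named after its value was seen, makes the other sugar donor, UDP-glucuronate, and went the opposite way, with 1192 in TTX and 924 in control (0.37). Of the other synthases, Has1 was above background on neither array and Has3 on the TTX array only, where it was at least 1.496-fold higher (23.9 in TTX, 14.6 in control). Itih1, a heavy chain of the inter-alpha-trypsin inhibitor that is transferred onto hyaluronan, was also above background on TTX only, and at least 3.004-fold higher (48.01 in TTX, 5.208 in control). Such a bound sets the bright signal against the higher of the dim spot and the lowest signal that counts as well above background. It leaves out the error of the bright spot, so it is no firm minimum where that spot is itself dim. Has3 lay little above the lowest counted TTX signal of 19.7. Cd44, a receptor for hyaluronan, was at 0.27.

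The list of chondroitin chain synthesis and sulfation had 24 measured genes of 26, with a median of -0.13, 16 below 0 and 8 above. Ust, a sulfotransferase of the uronic acid in the chain, read 231 in TTX and 516 in control (-1.16). B3gat2 read 639 in TTX and 155 in control (2.04), but 0.57 at its other probe. B3gat2 and its relative B3gat1 are glucuronyltransferases without an established part in building chondroitin chains. B3gat1 was lower, at -0.97 and at -1.43 at its other probe, and B3gat3 was level at -0.02. B3gat1 and B3gat3 were named after their values were seen. Of the enzymes that sulfate the 4 position, Chst11 was at -0.62 and Chst12 at 0.36. Of those for the 6 position, Chst3 was at -0.13, within its error of 0.31, and Chst7 at 0.34. These 4 were named after their values were seen. Chpf, a chain polymerizing factor and the brightest probe of the list, was at -0.27.

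Proteases that cut lecticans and their inhibitors gave 12 measured genes of 18, with a median of 0.00. Of the aggrecanase family, Adamts8 was lowest, with 105 in TTX and 610 in control (-2.54), a larger gap than that of Hapln1. Adamts15 read 120 in TTX and 303 in control (-1.34), and Adamts9 read 45.9 in TTX and 102 in control (-1.15), or -0.66 with normexp correction. Adamts1 was at -0.59, and Adamts4, above background on control alone, was at least 3.41-fold lower in TTX (14.9 in TTX, 67.1 in control); both were named after their values were seen. Adamts5 went the other way, above background on the TTX array only, at least 1.76-fold higher by the same bound from a dim spot (28.2 in TTX, 13.0 in control). The inhibitors Timp2 (0.26, the brightest gene of the list), Timp3 (0.45) and Timp4 (0.49) were slightly higher, and Timp1 was at -0.64. The highest measured genes of the list were the metalloproteases Mmp24, at 0.75 but at -0.13 at its other probe, and Mmp2 at 0.70 from a dim probe with an error of 0.35.

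Other chondroitin sulfate proteoglycans and tenascins had 12 measured genes of 14, a median of 0.11, and none past 2-fold. Cspg5, neuroglycan C, was the highest of them, with 3684 in TTX and 2303 in control (0.68). Cspg4, the proteoglycan NG2 of oligodendrocyte precursors and pericytes, came next at 0.52. App, the amyloid precursor protein and the brightest of the list, read 34070 in TTX and 41310 in control (-0.28). Ptprz1, a receptor phosphatase whose extracellular part is the proteoglycan phosphacan, bound by tenascin-R, was at 0.39. In the list of net receptors and bound factors, 20 of 21 genes were measured, with a median of -0.12. Nptx2, a pentraxin that gathers AMPA receptors and lodges in nets on parvalbumin cells, read 134 in TTX and 1166 in control (-3.12). Sema3a, a repulsive guidance protein held in nets by chondroitin sulfate, read 52.2 in TTX and 155 in control (-1.57). Egfr, a growth factor receptor rather than a net component, read 57.6 in TTX and 149 in control (-1.37). Itga9, the integrin chain that binds tenascin-C, read 223 in TTX and 95.5 in control (1.22). Ptprs, a receptor phosphatase for chondroitin sulfate and the brightest probe of the list, was at -0.17, and at 0.40 at its other probe. Sema3a, Egfr and Itga9 were past 2-fold under 4 of 5 alternatives and fell short of it with normexp correction, at -0.89, -0.81 and 0.81.

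**Figure D4:**
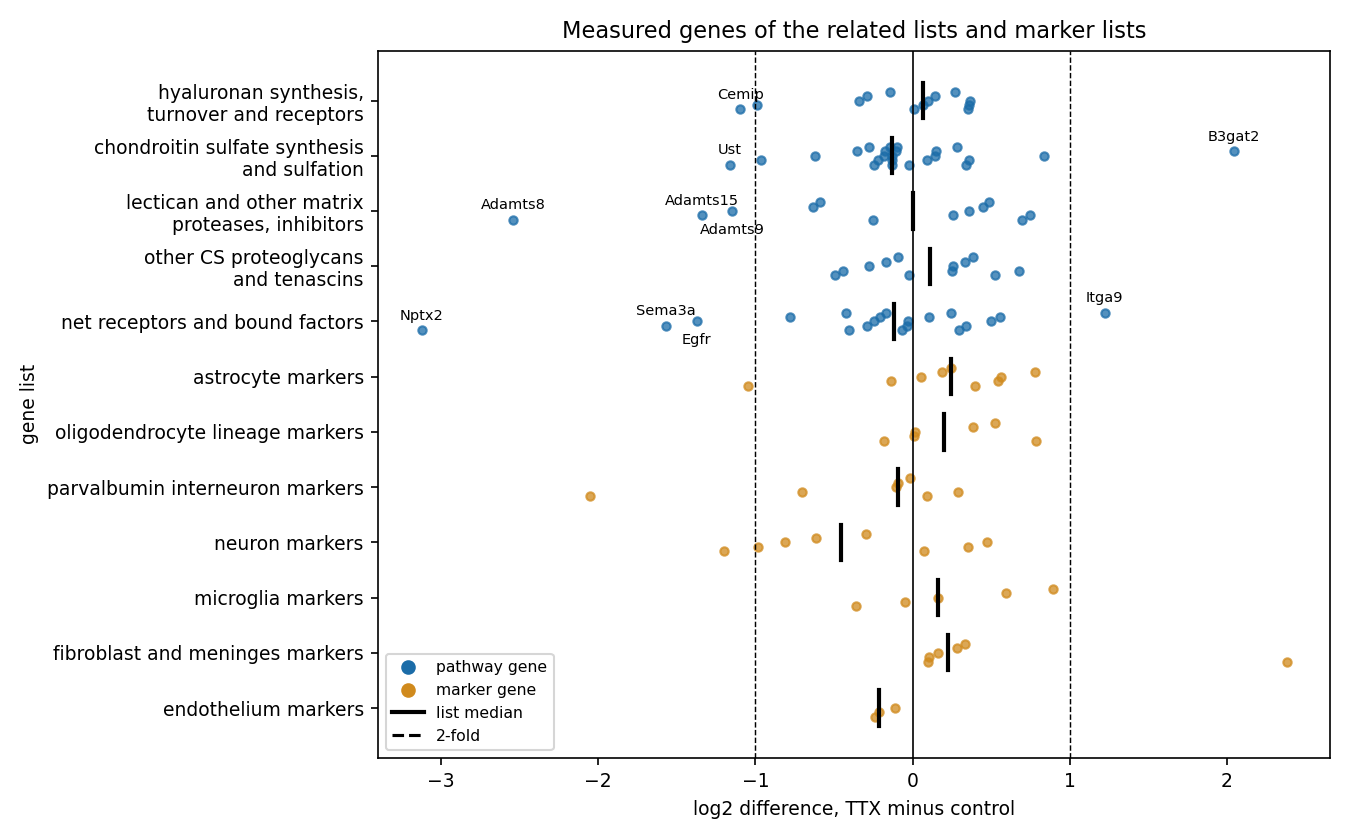
Log2 difference, TTX minus control, of each measured gene (points) in 5 lists around the members (blue) and 7 lists of cell type markers (orange), with the list median as a black bar and 2-fold as dashed lines. Medians of the 5 blue lists lie between -0.13 and 0.11, while Nptx2 at -3.12, Adamts8 at -2.54 and B3gat2 at 2.04 lie farthest out among blue points.

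The cultures hold neurons and glia together, so marker lists of each were read beside the members. Pvalb, the marker that defines the interneurons best known for nets, was well above background on both arrays, with 2747 in TTX and 2925 in control (-0.09). Over the list of parvalbumin interneuron markers 5 of 7 measured genes were below 0, with a summed signal of 29190 in TTX and 35430 in control, and Syt2 above background on control only. Of the 5, Pvalb, Kcnc2 (-0.01) and Gad2 (-0.11) lay within their spot errors of 0.20. The sums differ through Gad1 (6432 in TTX, 10460 in control) and Tac1, while Kcnc1 (0.29) and Lhx6 (0.09) were above 0. The lowest of the list, the neuropeptide precursor Tac1, had a difference about as large as that of Hapln1, with 781 in TTX and 3244 in control (-2.06). Beside the difference of Hapln1 stands the list of neuron markers, of which 5 of 8 were below 0, with a median of -0.45 and a summed signal of 125600 in TTX and 146800 in control. The lowest of that list was Nefm at -1.20, a smaller difference than that of Hapln1. The other neurofilaments were Nefh at -0.98 and Nefl at -0.61. Rbfox3 was at -0.81 and Syt1 at -0.29, while Map2 (0.35), Tubb3 (0.47) and Snap25 (0.07) were above 0. Cspg5 and, at its 3′ probe, Bcan were higher in TTX, and glia also make both. Beside them, 7 of 9 measured astrocyte markers were above 0, with a median of 0.24. The summed signal of the 9 was 62480 in TTX and 52150 in control, of which Aldoc gave 44060 and 38710. Of the markers above 0, Aldoc (0.19) and S100b (0.06) lay within their errors of 0.20 and 0.21. Slc1a2 of that list was at -1.05, and Aldh1l1 was at -0.14, within its error of 0.20. Gja1 was above background on TTX only, from a dim spot (22.8 in TTX, 15.2 in control). Of the oligodendrocyte lineage 5 of 6 measured markers were above 0, with sums of 2516 in TTX and 2120 in control, while the defining genes Pdgfra, Olig2 and Sox10 were above background on neither array. The part of cell type proportions in the differences of Hapln1 and of the 3′ probe of Bcan was not tested. Microglia (median 0.16), fibroblast (0.22) and endothelium (-0.21) markers had sums of 21190, 1587 and 2166 in TTX, and of 19100, 955 and 2551 in control. Most of the microglia sum came from Itgam alone (20320 in TTX, 18170 in control). Of the 5 measured microglia markers 3 were above 0 and 2 below. Csf1r, at -0.36, ran from -1.08 to 0.27 over its 3 probes. Most of the endothelium sum came from Kdr (2071 in TTX, 2445 in control), which was at 0.24 at its other probe. Cx3cr1, Cldn5, Tek and Cdh5 of these lists were above background on neither array. Of the fibroblast markers, Fbln1 read 567 in TTX and 109 in control, and Lum, above background on TTX only, was at least 3.036-fold higher (48.5 in TTX, 11.7 in control).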

How the data were processed

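The authors deposited 1 scanner file per array, whose values are spot intensity (linear, background-subtracted and detrended) from Feature Extraction, version 10.7.1.1 per the file headers and 9.5.1.1 per the submitters' processing notes. The deposited value table also holds intensity, and quantile normalization is the method stated in the labels. Flags such as the call "well above background" are other deposited values of Feature Extraction. Here spots marked as outliers (170 on TTX, 131 on control) were left out, processed signals were quantile normalized, and the log2 values of spots with the same probe were averaged. Probes count as measured if a share of 0.5 or more of their spots passed the background call on each array. Every gene is represented by the brightest of its measured probes. That call was positive for 52.2% of TTX spots and 54.2% of control spots, and none was saturated. Differences correlated at 0.9999 with those of the deposited table over 27398 measured probes. Symbols came from a RefSeq table of assembly GRCm38.p6, which named 30848 probes and served for names and neighbours only.

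Without replicates there was no test, and a 2-fold size rule was used. Members and lists were chosen with earlier results of these data known. All 10 members are named with every probe. From each of the 5 related lists the measured genes past 2-fold are named, or else the 2 with the largest differences, with the brightest gene; others, among them genes above background on 1 array and all marker genes, were added after their values were seen. Alternatives were 75th percentile, spike-in and no scaling, normexp background correction in limma 3.58.1 (R 4.3.3) with an offset of 50, the deposited table, subtraction of row-block medians, median signals, other filters and folds, and the mean over probes. Steps were run in Python 3.11.15 and tested on simulated data.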

Additional observations from a re-analysis of the deposited data

How the results depend on the processing

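Over 7 alternatives the difference of Hapln1 stayed between -2.14 and -1.89, and no measured member probe moved by more than the Feature Extraction error of its spots. Acan ranged from -0.39 to -0.22 and the 3′ probe of Bcan from 0.44 to 0.59. Of the 9 measured member probes only Tnr changed sign. Genes at least 2-fold lower and higher in TTX numbered 301 and 147 with normexp correction, 1368 and 1062 with no filter, 302 and 156 with a filter above percentile 25, 1211 and 1073 with a 1.5-fold rule, and 163 and 94 with a 3-fold rule, against 476 and 293. In the 5 related lists together these counts were 4 and 1 with normexp, where the offset pulls the log ratios of dim probes towards 0, and 14 and 6 with a 1.5-fold rule. With no filter 12 were lower and 5 higher, against 8 and 2 with it. Their median was 0.00901 with 75th percentile scaling, and the cause was not tested. Of the values for single lists, markers included, and for the median of all genes, 47 moved and 234 did not. Scaling on spike-ins put the median of all genes at -0.09. No paired analysis was possible because each group has 1 array. Signal over background limits Hapln2, Tnc and Has2, and a single probe limits Hapln1.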
